A study of Mus musculus with 6 samples.

Results

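The SLC25 family was examined in the livers of mice given FGF19. Its members were taken as the genes whose symbol is Slc25a followed by a number, with Slc25a13, Slc25a15 and Slc25a20 left out and used only for comparison. Of 23284 genes listed, 41 were such members, and 36 of them had a mean of at least 1 CPM, a unit that scales the counts of a gene to the total of its library, over all libraries. All 36 passed the filter on low counts and were tested with the other genes (12559 in all). Liver RNA was sequenced from C57BL/6 mice, 8 weeks old, that had been fasted overnight and then received vehicle or 1 mg/kg of FGF19, with fasting continued for 6 h. There were 3 Vehicle and 3 FGF19 mice, with 1 library per mouse. The labels name no genetic change in either group, and both were sampled at the same time point. The route of treatment and the composition of the vehicle were not given in the sources used here.

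Most SLC25 proteins are carriers of the inner mitochondrial membrane that move a small solute such as ADP and ATP, phosphate, a carboxylate, an amino acid or a cofactor between the cytosol and the matrix, mostly by exchange. In hepatocytes they link glycolysis, gluconeogenesis, the urea cycle, lipid synthesis and respiration, since the enzymes of these pathways lie on both sides of the membrane. FGF19 is the human ortholog of mouse FGF15, a hormone that the intestine releases after a meal and that acts on the liver, where it lowers bile acid synthesis.

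Libraries held between 18994654 and 22920056 counts, so that 3 counts, taken as the limit that a count of 0 allows, stood for 0.131 to 0.158 CPM, a limit that covers counting error only. The treatment was visible in Cyp7a1, the rate-limiting enzyme of bile acid synthesis, whose mean was 268 ± 44.1 CPM in Vehicle livers and 11.4 ± 1.75 CPM in FGF19 livers (SD, n = 3), with an adjusted p of 9.41e-07 by edgeR's quasi-likelihood test. Within the FGF19 group, counts over all genes differed by a chi-square of 29.7 per degree of freedom between replicates 1 and 3. The value was 39.4 between replicates 2 and 3 and 8.25 between replicates 1 and 2. Among Vehicle pairs it was 28.1 (replicates 1 and 2), 15.7 (1 and 3) and 17.6 (2 and 3). No pair of libraries agreed within sampling noise. All 5 hepatocyte markers were present, at a summed level of 99041 to 103684 CPM in Vehicle and 88784 to 101291 CPM in FGF19 livers, and none of them passed an adjusted p of 0.05. All 5 had a log2 difference below 0, with a median of -0.22, and Cyp2e1, a cytochrome P450, was at 9366 to 9936 CPM in Vehicle and 6718 to 8205 CPM in FGF19 livers (-0.39, adjusted p 0.0645, unadjusted p 0.00552, edgeR's quasi-likelihood test).

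SLC25 transcripts as a whole were at similar levels in both groups. Their summed level was 4001 ± 251 CPM in Vehicle and 4054 ± 118 CPM in FGF19 livers (SD, n = 3), or 0.401 ± 0.0282% and 0.405 ± 0.0111% of the counts. In bulk liver, fewer cells of a type and less RNA per cell cannot be told apart. The difference of FGF19 from Vehicle, fitted by edgeR's quasi-likelihood test and given throughout on the log2 scale, was above 0 for 15 members and below 0 for 21. Its median over the members was -0.06, against -0.00076 over all genes tested, and the members ranged from -0.72 to 0.97.

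At p under 0.01, the threshold that the study applied, 3 members were higher after FGF19 and 5 were lower. Over all genes tested, 6.20% were higher and 4.98% lower at that threshold, so that 3 of 36 stood near the background and 5 of 36 (13.9%) above it. In either direction, 8 of 36 members passed (22.2%), against 11.2% of all genes. With p adjusted over all genes by Benjamini-Hochberg and a threshold of 0.05, used below wherever a gene is said to have risen or fallen, 3 members rose and 3 fell (16.7% together), against 4.56% and 2.84% of all genes in these directions and 7.41% in either. Every FGF19 library lay above every Vehicle library for 4 members and below for 8, against 14.5% and 13.8% of all genes. Without FGF19 replicate 3, 11 of 36 members passed p under 0.01, against 17.0% of all genes. In that fit 11 also passed the adjusted threshold, against 15.3% of all genes, among them all 6 that passed it with every library. Without Vehicle replicate 3, in contrast, 1 of 36 members passed the adjusted threshold, a share near the 2.69% of all genes, and without FGF19 replicate 1 or 2 it was 2 of 36, against 3.26% and 2.9%. These shares are descriptions of the members and were not tested against other sets of genes.

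**Figure D1:**
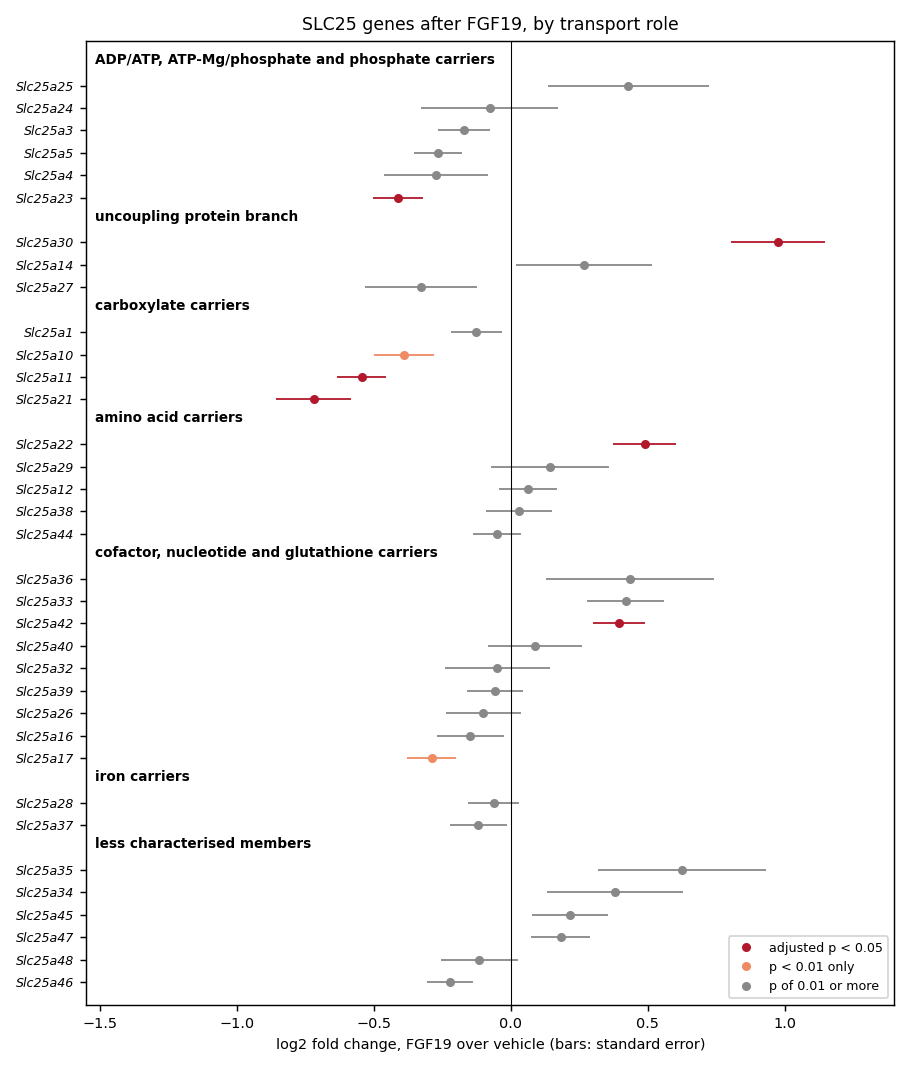
Log2 difference of FGF19 from Vehicle livers (x axis, with bars of 1 standard error) for 35 of the 36 SLC25 members with a mean of at least 1 CPM, in rows grouped by the solute they carry, from edgeR's quasi-likelihood fit with 3 mice per group. Red points have an adjusted p under 0.05, orange points only p under 0.01 and grey points neither, and the values run from -0.72 for Slc25a21 to 0.97 for Slc25a30.

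The 6 members that rose or fell carry different solutes. Slc25a21 (oxodicarboxylates), Slc25a11 (2-oxoglutarate) and Slc25a23 (ATP-Mg) fell, and Slc25a30 (a relative of the uncoupling proteins), Slc25a22 (glutamate) and Slc25a42 (coenzyme A) rose. Their promoters are shown to give the sequence around the start of each gene whose transcript level differed, from 250 bases before to 50 bases after the RefSeq transcript start, in the order from the largest fall to the largest rise. The sequences are those RefSeq gives for GRCm38.p6, and each was found at exactly 1 place in mm9, the build of the counts, on the minus strand. They lie at chr12:58298410-58298709 (Slc25a21), chr11:70460492-70460791 (Slc25a11), chr17:57199237-57199536 (Slc25a23), chr8:72736131-72736430 (Slc25a42), chr7:148623724-148624023 (Slc25a22) and chr14:76186795-76187094 (Slc25a30). In each case the start is also the first exon base that the count files give for the gene. Capitals mark CG dinucleotides, the sites at which mammalian DNA can be methylated:
Slc25a21: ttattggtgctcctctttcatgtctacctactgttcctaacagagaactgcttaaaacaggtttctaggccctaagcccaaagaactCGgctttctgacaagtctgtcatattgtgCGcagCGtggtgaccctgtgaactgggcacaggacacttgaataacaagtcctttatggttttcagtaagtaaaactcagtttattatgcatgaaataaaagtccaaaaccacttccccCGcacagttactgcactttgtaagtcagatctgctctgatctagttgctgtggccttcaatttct
Slc25a11: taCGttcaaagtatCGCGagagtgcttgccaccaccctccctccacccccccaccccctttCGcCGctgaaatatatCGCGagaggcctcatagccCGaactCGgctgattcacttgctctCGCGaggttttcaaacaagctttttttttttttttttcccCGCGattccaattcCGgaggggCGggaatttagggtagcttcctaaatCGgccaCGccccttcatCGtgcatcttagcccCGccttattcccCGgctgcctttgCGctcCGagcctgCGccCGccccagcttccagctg
Slc25a23: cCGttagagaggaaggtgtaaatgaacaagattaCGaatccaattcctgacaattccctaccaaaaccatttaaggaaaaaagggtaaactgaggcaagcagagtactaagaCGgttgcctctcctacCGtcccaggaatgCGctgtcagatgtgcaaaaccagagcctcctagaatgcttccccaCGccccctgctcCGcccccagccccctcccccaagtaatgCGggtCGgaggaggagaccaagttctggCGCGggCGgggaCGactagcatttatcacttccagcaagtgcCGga
Slc25a42: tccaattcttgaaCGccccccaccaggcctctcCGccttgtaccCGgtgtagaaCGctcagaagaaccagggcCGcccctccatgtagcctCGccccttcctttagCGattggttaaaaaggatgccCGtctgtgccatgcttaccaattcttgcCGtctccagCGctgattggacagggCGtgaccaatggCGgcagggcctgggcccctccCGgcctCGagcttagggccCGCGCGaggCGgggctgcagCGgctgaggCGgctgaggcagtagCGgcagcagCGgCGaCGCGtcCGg
Slc25a22: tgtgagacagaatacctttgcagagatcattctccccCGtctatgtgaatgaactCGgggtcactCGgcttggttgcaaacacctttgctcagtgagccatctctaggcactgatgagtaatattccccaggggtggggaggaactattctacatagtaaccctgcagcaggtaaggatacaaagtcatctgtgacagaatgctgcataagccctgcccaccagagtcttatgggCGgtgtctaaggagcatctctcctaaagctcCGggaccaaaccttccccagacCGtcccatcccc
Slc25a30: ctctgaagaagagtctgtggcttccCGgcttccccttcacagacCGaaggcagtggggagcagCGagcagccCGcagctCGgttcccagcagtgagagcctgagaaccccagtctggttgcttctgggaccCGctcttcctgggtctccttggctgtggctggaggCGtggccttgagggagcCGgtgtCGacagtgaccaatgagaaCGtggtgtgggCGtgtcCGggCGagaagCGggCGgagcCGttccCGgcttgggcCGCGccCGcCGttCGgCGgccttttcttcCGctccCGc

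The promoters of these 6 genes differed widely in CG content. The window of Slc25a21 held 4 CG dinucleotides and that of Slc25a22 held 6, while those of Slc25a23, Slc25a11, Slc25a30 and Slc25a42 held 14, 24, 25 and 26. Neither the genes that fell nor those that rose were all rich or all poor in CG. An entry was found for 28 of the 36 members, and their median of 21.5 CG dinucleotides (highest entry per gene) was near the 22 of all genes tested. Of short motifs searched on both strands, the GC box GGGCGG, which itself holds a CG, was present in 5 of the 6 windows, all but that of Slc25a21, and in 60.7% of the promoters of genes tested. CCAAT was present in 5 of 6, all but Slc25a22, against 37.5%. TATAAA (7.75% of the promoters of genes tested), CACGTG (9.83%) and TTCNNNGAA (7.07%) were in none of the 6 windows, which says only that these letters are not in them. These statements hold for the windows printed, at the start farthest upstream. RefSeq gives further starts for Slc25a21, Slc25a22 and Slc25a23. A downstream window of Slc25a21 held 3 CG dinucleotides, TATAAA and no CCAAT, those of Slc25a22 held 10 and 8 CG dinucleotides with 3 and 1 GC boxes and CCAAT in the first of them, and that of Slc25a23 held 15 CG dinucleotides.

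All 4 carriers of carboxylates had a difference below 0, with a median of -0.47, 3 of them were lower at p under 0.01 (4.98% of all genes), and 2 of these fell at the adjusted threshold. Slc25a11 (chr11:70457529-70460541), the 2-oxoglutarate carrier, exchanges 2-oxoglutarate for malate and is part of the malate-aspartate shuttle, which moves reducing equivalents into mitochondria. It was at 80.1, 81.4 and 81.4 CPM in Vehicle replicates 1 to 3 and at 55.3, 50.6 and 60.6 CPM in FGF19 replicates 1 to 3. The Vehicle livers were almost alike and all FGF19 livers lay below them. The log2 difference was -0.55 (SE 0.0901), to 0.685 of the Vehicle level, with an adjusted p of 0.00771 by edgeR's quasi-likelihood test. Slc25a11 was the only one of the 6 called members whose call held when any 1 of the libraries was left out (adjusted p from 0.00191 to 0.0430).

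Slc25a21 (chr12:57813621-58298459), the oxodicarboxylate carrier, moves 2-oxoadipate, an intermediate of lysine and tryptophan breakdown. Its levels were 12, 10.8 and 12.8 CPM in Vehicle livers and 6.93, 6.53 and 8.10 CPM in FGF19 livers. The groups did not overlap, and the log2 difference of -0.72 (SE 0.137, adjusted p 0.0141, edgeR's quasi-likelihood test) was the largest fall among the members. The call was lost without Vehicle replicate 3 (adjusted p 0.0752), FGF19 replicate 1 (0.0640) or FGF19 replicate 2 (0.0679).

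Slc25a10 (chr11:120353151-120362475), the dicarboxylate carrier, exchanges malate and succinate for phosphate. It was at 366, 282 and 309 CPM in Vehicle and 234, 237 and 260 CPM in FGF19 livers. All FGF19 livers again lay below all Vehicle livers, with a log2 difference of -0.39 (SE 0.109, adjusted p 0.0649, unadjusted p 0.00558, edgeR's quasi-likelihood test), so that it passed the study's threshold but not the adjusted one. The adjusted p was under 0.05 without Vehicle replicate 2 (0.0484) or FGF19 replicate 3 (0.0360), with DESeq2 (0.0211) and with edgeR's likelihood ratio test (0.0319). The study's threshold was missed without Vehicle replicate 1 (adjusted p 0.172, unadjusted p 0.0220), Vehicle replicate 3 (0.160 and 0.0132), FGF19 replicate 1 (0.214 and 0.0247) or FGF19 replicate 2 (0.212 and 0.0234), and with the replicate number as a block (0.137 and 0.0123), in the same edgeR test. The citrate carrier Slc25a1, which exports citrate for fatty acid synthesis, was at 151 to 179 CPM in FGF19 and 168 to 186 CPM in Vehicle livers, which overlapped, with a log2 difference of -0.13 and an adjusted p of 0.476 by the same test.

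**Figure D2:**
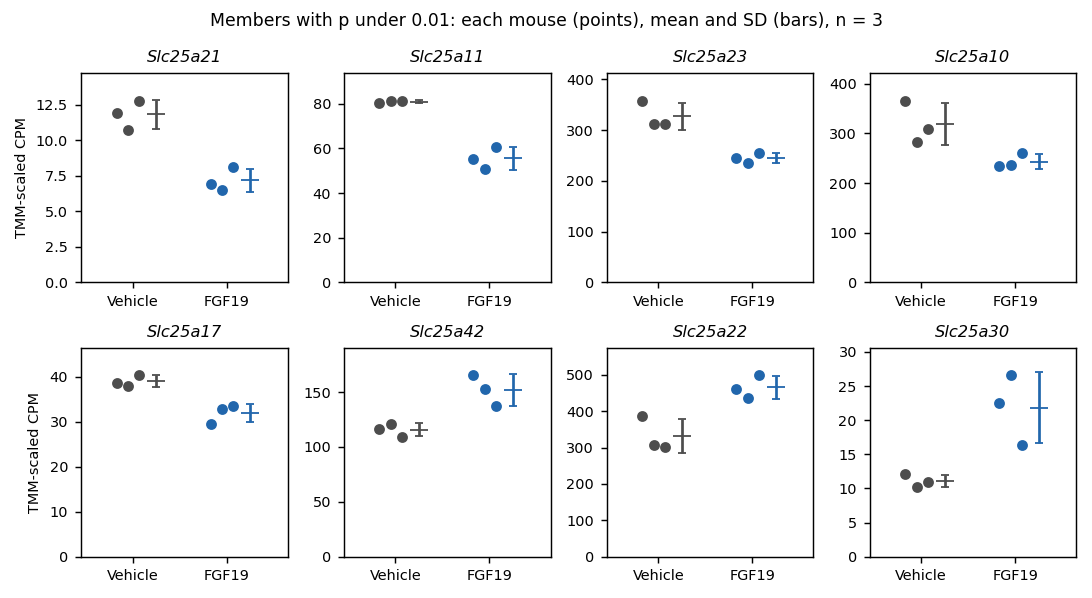
CPM (y axis, linear from 0) of the 8 SLC25 members with p under 0.01 in each Vehicle and FGF19 library, with 1 point per mouse and, to the right of the points, the mean of each group with its SD (n = 3). In every panel the 3 FGF19 livers lie wholly above or wholly below the 3 Vehicle livers, as for Slc25a11 with 50.6 to 60.6 against 80.1 to 81.4 CPM.

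The carriers of ADP, ATP and phosphate supply oxidative phosphorylation. Of 6 with at least 1 CPM, 5 had a difference below 0 and 1 above, with a median of -0.22, and 1 fell (50.1% of all genes were below 0 and 2.84% fell). Slc25a23 (chr17:57183134-57199286), an ATP-Mg carrier regulated by calcium, which changes the adenine nucleotide content of the matrix, was at 358, 311 and 312 CPM in Vehicle and 245, 236 and 256 CPM in FGF19 livers. The FGF19 livers were close to each other and all below the Vehicle livers, by -0.41 on the log2 scale (SE 0.0907, adjusted p 0.0262, edgeR's quasi-likelihood test). This call was lost without Vehicle replicate 1 (adjusted p 0.0834), Vehicle replicate 3 (0.0752), FGF19 replicate 1 (0.102) or FGF19 replicate 2 (0.125).

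The other ATP-Mg carrier with a high level, Slc25a25, had the most variable values of the group, at 354, 149 and 375 CPM in Vehicle and 484, 337 and 362 CPM in FGF19 livers. Vehicle replicate 2 was the low library, the groups overlapped, and the log2 difference of 0.43 (SE 0.293, adjusted p 0.433) became 0.11 without that library. Exons of Slc25a25 overlap Naif1 over 10.2% of their length, and reads falling on both genes were left out of the counts. The paralogue Slc25a24 was at 1.4 to 2.33 CPM in the 6 libraries, and the ATP-Mg carrier Slc25a41 had no count in any.

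Slc25a5 encodes ANT2, an ADP/ATP exchanger. It was at 343, 332 and 336 CPM in Vehicle and 263, 272 and 306 CPM in FGF19 livers, without overlap, and its log2 difference of -0.27 (SE 0.0882) had an adjusted p of 0.106 by edgeR's quasi-likelihood test. The adjusted p was 0.0182 without FGF19 replicate 3, but the 5 other fits that left out 1 library did not pass (highest 0.336). Slc25a5 has near-identical processed copies in the genome and reads that aligned to several places were not counted, so its level is uncertain. Slc25a4, which encodes ANT1, was at 5.05 to 7.79 CPM in Vehicle and 4.55 to 5.93 CPM in FGF19 livers. Of the summed level of the ADP/ATP exchangers Slc25a4 and Slc25a5 per kilobase of exon, Slc25a5 made up 97.9 ± 0.470% in Vehicle and 97.9 ± 0.226% in FGF19 livers (SD, n = 3). The phosphate carrier Slc25a3, which brings in phosphate for ATP synthesis, was at 241 to 265 CPM in Vehicle and 214 to 252 CPM in FGF19 livers, with a log2 difference of -0.17 and an adjusted p of 0.329 by the same test.

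Of the branch of the family that resembles the uncoupling proteins, 3 members were present, and Slc25a30 (chr14:76161806-76186844) had the largest rise of all members. This carrier, also known as KMCP1, was first described in kidney. It was at 12.1, 10.2 and 11.0 CPM in Vehicle and at 22.5, 26.7 and 16.4 CPM in FGF19 livers. All FGF19 livers were above all Vehicle livers, with FGF19 replicate 3 the nearest to them. The log2 difference was 0.97 (SE 0.172), a level 1.96 times that of Vehicle, with an adjusted p of 0.0101 by edgeR's quasi-likelihood test, and the call was lost without Vehicle replicate 3 (adjusted p 0.0555). The other two were low: Slc25a14 was at 1.38 to 2.26 CPM and Slc25a27 at 1.68 to 2.33 CPM over the 6 libraries. Slc25a27 lay below in every FGF19 library, with a log2 difference of -0.33 (adjusted p 0.382), and Slc25a14 overlapped between groups, with 0.27 (adjusted p 0.58), by the same test.

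Of 5 amino acid carriers, 4 had a difference above 0 and 1 below, with a median of 0.06, and 1 rose (4.56% of all genes). Slc25a22 (chr7:148615648-148623773), a glutamate carrier that brings glutamate into the matrix with a proton, was at 387, 307 and 301 CPM in Vehicle and 460, 436 and 500 CPM in FGF19 livers. The highest Vehicle liver, replicate 1, stayed below the lowest FGF19 liver. The log2 difference was 0.49 (SE 0.115, adjusted p 0.0341, edgeR's quasi-likelihood test), a level 1.4 times that of Vehicle. The call was lost without Vehicle replicate 2 (adjusted p 0.104), Vehicle replicate 3 (0.148), FGF19 replicate 1 (0.0997) or FGF19 replicate 2 (0.0695). The second glutamate carrier, Slc25a18, had 1 to 6 counts per library and was not tested.

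The aspartate-glutamate carrier Slc25a12, part of the malate-aspartate shuttle together with Slc25a11, was at 20.1 to 23.6 CPM in Vehicle and 20.6 to 23.6 CPM in FGF19 livers, with a log2 difference of 0.06 and an adjusted p of 0.784 by the same test. Its paralogue Slc25a13, which was not counted among the members, was the main form. Slc25a13 was at 321 ± 21.6 CPM in Vehicle and 257 ± 22.4 CPM in FGF19 livers (SD, n = 3), and its log2 difference of -0.32 had an adjusted p of 0.0844 and an unadjusted p of 0.00917 in the edgeR fit. It thus passed the study's threshold but not the adjusted one, and its groups did not overlap. Of the summed level of both per kilobase of exon, Slc25a13 made up 93.3 ± 0.541% in Vehicle and 91.4 ± 1.12% in FGF19 livers, and an exact permutation test of 3 against 3 mice cannot give a two-sided p below 0.1. The ornithine carrier Slc25a15 (log2 difference -0.02, adjusted p 0.929) and the carnitine-acylcarnitine carrier Slc25a20 (-0.18, adjusted p 0.371) did not pass the edgeR test. The remaining amino acid carriers, Slc25a29 (basic amino acids), Slc25a38 (glycine) and Slc25a44 (branched-chain amino acids), overlapped between the groups and had log2 differences of 0.14, 0.03 and -0.05.

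The carriers of cofactors, nucleotides and glutathione were the largest group, with 10 members. Of these, 4 had a difference above 0 and 6 below, with a median of -0.05. Slc25a42 (chr8:72708239-72736180), which imports coenzyme A in exchange for adenine nucleotides, was at 117, 121 and 109 CPM in Vehicle and 166, 153 and 137 CPM in FGF19 livers. It rose in all FGF19 livers relative to all Vehicle livers, by 0.39 (SE 0.0954, adjusted p 0.0378, edgeR's quasi-likelihood test). This call was lost in 5 of the 6 fits that left out 1 library. The adjusted p was above 0.05 without any 1 library other than FGF19 replicate 3, at 0.0987, 0.0731 and 0.166 without Vehicle replicates 1 to 3 and 0.160 and 0.116 without FGF19 replicates 1 and 2, and 0.0544 with scaling by total count.

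Slc25a17 (chr15:81149351-81191195), a carrier of the peroxisomal membrane that moves coenzyme A and related cofactors, was at 38.7, 37.9 and 40.5 CPM in Vehicle and 29.6, 32.8 and 33.5 CPM in FGF19 livers. It was lower in all FGF19 livers, by -0.29 (SE 0.0892, adjusted p 0.0857, unadjusted p 0.00940, edgeR's quasi-likelihood test). The adjusted p was 0.0392 without FGF19 replicate 3, but without any other library it was 0.153 to 0.292 and the unadjusted p, at 0.0189 to 0.0493, missed the study's threshold. That threshold was also missed with DESeq2 (adjusted p 0.107, unadjusted p 0.0138), the likelihood ratio test (0.0825 and 0.0113), the filter of 1 CPM in every library (0.0863 and 0.0102) and the replicate number as a block (0.209 and 0.0289). Slc25a16, a mitochondrial carrier also linked to coenzyme A, overlapped between groups, with -0.15 and an adjusted p of 0.526 by the same test.

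Slc25a39, required for glutathione import into mitochondria, was the most abundant of this group at 584, 566 and 582 CPM in Vehicle and 533, 500 and 630 CPM in FGF19 livers. FGF19 replicate 3 was above, and replicates 1 and 2 below, all Vehicle livers, and the log2 difference of -0.06 had an adjusted p of 0.787. Its paralogue Slc25a40 was at 3.18 to 4.23 CPM over all libraries. Slc25a33, a carrier of pyrimidine nucleotides, had a log2 difference of 0.42 (SE 0.14), with 23.6, 32.3 and 26.5 CPM in Vehicle and 42.1, 35.7 and 32.2 CPM in FGF19 livers. The highest Vehicle and lowest FGF19 livers were almost equal, and the adjusted p was 0.108 by edgeR's quasi-likelihood test. It was 0.0408 without FGF19 replicate 3, but above 0.05 without any 1 other library (highest 0.330). Slc25a36, also a carrier of pyrimidine nucleotides, was the member nearest above the limit for inclusion, with a mean of 1.20 CPM before scaling between libraries, a log2 difference of 0.43 and an adjusted p of 0.453. The carriers of S-adenosylmethionine (Slc25a26) and folate (Slc25a32) had log2 differences of -0.10 and -0.05, and their groups overlapped. Exons of Slc25a26 overlap Lrig1 over 6.46% of their length.

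The iron carriers Slc25a28 and Slc25a37, which bring iron to the matrix for heme and iron-sulfur clusters, differed little. Slc25a28 was at 30.5, 29.5 and 26.5 CPM in Vehicle and 26.6, 27.5 and 28.6 CPM in FGF19 livers (log2 difference -0.06, adjusted p 0.744, edgeR's quasi-likelihood test). Slc25a37 was at 26.4 to 29.3 CPM in Vehicle and 22.6 to 27.4 CPM in FGF19 livers (-0.12, adjusted p 0.551, same test). Both overlapped between the groups.

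Of the 6 less characterised members, 4 had a difference above 0 and 2 below, with a median of 0.20, and none passed p under 0.01. Slc25a47, expressed mainly in liver, was the most abundant of all members at 737, 724 and 672 CPM in Vehicle and 872, 852 and 694 CPM in FGF19 livers. FGF19 replicates 1 and 2 were above all Vehicle livers and replicate 3 was within their range. The log2 difference was 0.18 (SE 0.107) with an adjusted p of 0.358 by edgeR's quasi-likelihood test. The adjusted p was 0.0408 without FGF19 replicate 3, but the 5 other fits that left out 1 library did not pass (highest 0.697). Slc25a46, which belongs to the outer membrane and takes part in mitochondrial dynamics, was at 56.1, 56.2 and 59.3 CPM in Vehicle and 51.9, 49.4 and 45.9 CPM in FGF19 livers. The groups did not overlap, but the difference of -0.22 had an adjusted p of 0.154 by edgeR's quasi-likelihood test. Slc25a35 was at 1.29, 1.17 and 0.695 CPM in Vehicle and 1.30, 2.02 and 1.54 CPM in FGF19 livers. Its log2 difference of 0.62 (SE 0.305, adjusted p 0.262) was the second largest above 0, and the lowest FGF19 liver was just above the highest Vehicle liver. Exons of Slc25a35 overlap Rangrf over 1.59% of their length. Slc25a34, Slc25a45 and Slc25a48 overlapped between the groups, with log2 differences of 0.38, 0.22 and -0.12.

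The 5 members under 1 CPM were at or near the limit of a count of 0. Slc25a41 had no count in any library and Slc25a43 had 1 in all of them together. Slc25a31, the ADP/ATP exchanger of the testis, had up to 2 counts in a library, and Slc25a2, an ornithine carrier, up to 4. Slc25a18 was nearest below the limit, with a mean of 0.140 CPM before scaling between libraries. These levels were not tested.

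Levels were compared between members per kilobase of exon, on the CPM scale (RPKM), averaged over the 6 libraries. They spanned a 1224-fold range, from 480 RPKM for Slc25a47 to 0.392 RPKM for Slc25a36, with a median of 12.5 RPKM. Next to Slc25a47 came Slc25a39 with 341 RPKM, Slc25a5 with 250 RPKM and Slc25a3 with 160 RPKM. The lowest library of Slc25a47, of Slc25a39 and of Slc25a5 was above the highest library of the next member in this order, while Slc25a3 overlapped with Slc25a22, the next below it. The place of Slc25a5 is uncertain even so, since its reads that aligned to several places were not counted. Further down the order was mostly not resolved: 29 of 35 neighbouring pairs overlapped between libraries. The 5 highest members made up 68.3 ± 1.29% of the summed RPKM of the family in Vehicle and 69.6 ± 0.451% in FGF19 livers (SD, n = 3). The members that rose or fell lay both among the abundant carriers, as Slc25a22 and Slc25a23, and further down the order, as Slc25a30 with 9.65 RPKM and Slc25a21 with 3.44 RPKM.

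**Figure D3:**
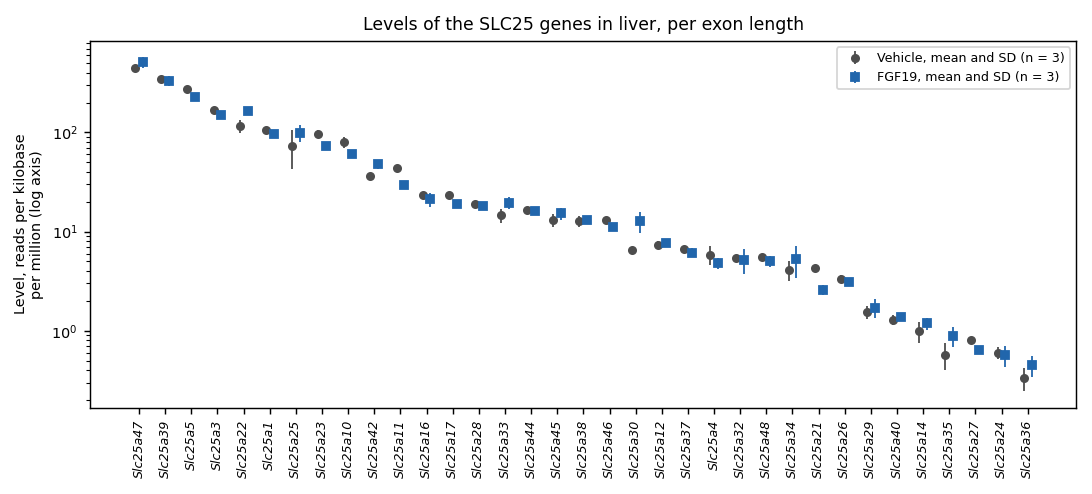
RPKM (y axis, log scale) of 35 of the 36 SLC25 members with a mean of at least 1 CPM, ordered by their mean over the 6 libraries, with the mean and SD (n = 3) of Vehicle livers as grey circles and of FGF19 livers as blue squares. Mean levels run from 480 RPKM for Slc25a47 to 0.392 RPKM for Slc25a36, and the means of both groups lie close together for most members.

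Genes that work with the carriers were read from the same fit, in which 50.1% of all genes had a difference below 0, 4.98% were lower and 6.20% higher at p under 0.01, and 2.84% fell and 4.56% rose at the adjusted threshold. Carrier proteins are guided through the outer membrane by TOM receptors and inserted into the inner membrane by the TIM22 complex, with small TIM chaperones between the membranes. Of 12 genes of this import route, 11 had a difference below 0, with a median of -0.12, but none passed the adjusted threshold. The small chaperones Timm9 (21.6 ± 2.42 CPM in Vehicle and 15.1 ± 2.84 CPM in FGF19 livers) and Timm10 (18.4 ± 1.35 and 12.2 ± 2.90 CPM) were lower at p under 0.01, with log2 differences of -0.51 and -0.59 and adjusted p of 0.0703 and 0.0597 by edgeR's quasi-likelihood test (SD, n = 3). The receptor Tomm70a, which binds carrier precursors and was the highest of the list, had a log2 difference of -0.03 (adjusted p 0.87).

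Of 16 tested carriers and pores of the mitochondrial membranes that are not named as SLC25 members, 13 had a difference below 0, with a median of -0.19, 2 were lower at p under 0.01 (4.98% of all genes) and 1 fell (2.84%). This was Vdac1, the main pore through which metabolites cross the outer membrane, at 186, 173 and 186 CPM in Vehicle and 132, 129 and 146 CPM in FGF19 livers. All FGF19 livers were lower, by -0.42 (SE 0.0864, adjusted p 0.0189, edgeR's quasi-likelihood test), and the call was lost when Vehicle replicate 1 or 3 or FGF19 replicate 1 or 2 was left out (highest adjusted p 0.102).

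A list of 12 enzymes covered the malate-aspartate and citrate shuttles, together with some of gluconeogenesis and of the glycerol phosphate shuttle. Of these 12, 10 had a difference below 0 and 2 above, with a median of -0.16. Pck1, the rate-limiting enzyme of gluconeogenesis and the highest gene of the list, had a log2 difference of 0.10 (adjusted p 0.737).

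**Figure D4:**
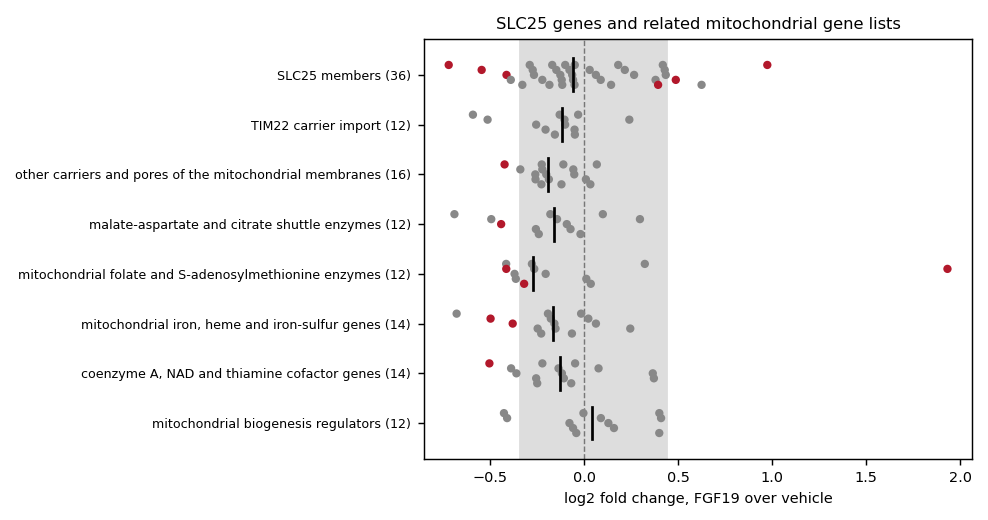
Log2 difference of FGF19 from Vehicle livers (x axis) for each tested gene of the SLC25 family and of 7 lists of related mitochondrial genes, 1 row per list. Black bars are list medians, from -0.27 for folate and S-adenosylmethionine enzymes to 0.04 for biogenesis regulators, red points have an adjusted p under 0.05, and the grey band and dashed line are the 10th to 90th percentile (-0.34 to 0.44) and median of all genes tested.

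Markers of other liver cell types moved in part with the treatment. The summed level of 5 Kupffer cell markers was 138 to 173 CPM in Vehicle and 136 to 163 CPM in FGF19 livers, but Marco, a scavenger receptor, rose from 6.15 ± 2.94 to 30.2 ± 2.01 CPM (SD, n = 3, adjusted p 0.00105, edgeR's quasi-likelihood test). Vsig4 had a difference of the other sign, at 17.0, 24.4 and 18.7 CPM in Vehicle and 11.9, 13.5 and 15.8 CPM in FGF19 livers (log2 difference -0.54, adjusted p 0.0755, unadjusted p 0.00734, same test), and Clec4f, Cd5l and Timd4 had log2 differences of -0.29, -0.22 and 0.09. Neutrophil markers summed to 0.429 to 1.99 CPM in Vehicle and 3.07 to 4.73 CPM in FGF19 livers. Among them S100a9 rose, from 0.238, 0.212 and 1.04 to 1.67, 2.30 and 2.76 CPM (log2 difference 2.16, adjusted p 0.0292, same test). Of 6 erythroid markers, the 4 haemoglobin genes were listed at 0 in all libraries, which says nothing of their level, since Hba-a1 and Hba-a2, and likewise Hbb-b1 and Hbb-b2, cover almost the same bases in this annotation and reads on several genes were not counted. Alas2, the erythroid enzyme of heme synthesis, was at 77.1, 78.6 and 57.2 CPM in Vehicle and 48.1, 43.6 and 57.5 CPM in FGF19 livers (log2 difference -0.51, adjusted p 0.0645, unadjusted p 0.00552, same test). The summed level of the erythroid markers was 57.3 to 78.8 CPM in Vehicle and 43.6 to 57.6 CPM in FGF19 livers. Of skeletal muscle markers, 3 of 4 were at 0. Endothelial markers summed to 158 to 163 CPM in Vehicle and 143 to 150 CPM in FGF19 livers. Among them Clec4g had a log2 difference of -0.38 (adjusted p 0.0736, unadjusted p 0.00694, same test), Kdr -0.17, Stab2 -0.01 and Pecam1 0.14. The sums of stellate cell markers (152 to 220 and 156 to 193 CPM) and cholangiocyte markers (12.5 to 21.1 and 13.7 to 20.003 CPM) overlapped. Of 4 adipocyte markers, Adipoq and Plin1 were at 0.106 CPM or less in every library and Ucp1 had no count, while Fabp4, which other cell types express too, rose (adjusted p 0.0344, same test), with a summed level of 8.99 to 10.9 CPM in Vehicle and 14 to 15.4 CPM in FGF19 livers. The part of these cell types in the differences of the carriers was not tested.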

How the data were processed

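RNA-seq was made from liver RNA of 3 Vehicle and 3 FGF19 mice by paired-end sequencing with reads of 100 bases. Per the submitters' processing notes, the authors used Trimmomatic 0.36, STAR 2.5.3a and featureCounts 1.5.2. The methods and the reporting summary name other STAR versions. The deposited counts are raw numbers of reads per gene on mm9 exons, without strand, with mates counted separately and without reads that aligned to several places or lay on several genes. The merged exon length deposited beside them was used for RPKM. A table of the authors' own fold changes, p-values and mean levels was not used.

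Here, edgeR 4.0.16 (R 4.3.3) was run on all genes: filterByExpr, TMM scaling (factors 0.964 to 1.03), and the quasi-likelihood test of FGF19 against Vehicle without covariates, as the methods name edgeR and p under 0.01 but not the kind of test. Standard errors are the log2 difference divided by the square root of F. CPM are TMM-scaled, and a member had to reach a mean of 1 CPM. The steps were tested on simulated data, with the same spread set for every gene. Of 200 changed genes among 12559, the quasi-likelihood test recovered 197, with 8 false calls. Differences as small as those of most called members were not simulated, so recovery at that size is not known.

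The members, roles and lists were chosen with earlier results of these data known. Genes named were members with p under 0.01, the 5 highest by RPKM, the 3 largest differences in each direction, the highest by CPM of each role, those nearest to 1 CPM, and, of other lists, the highest gene and those with an adjusted p under 0.05. A member and some genes of other lists are counted but not reported here by name. Other members were named after their values were seen, to account for every member. The methods state the number of mice per group, and the p-values measure the spread between these mice. Alternatives were DESeq2 1.42.0, limma-voom (limma 3.58.1), edgeR's likelihood ratio test, scaling by total count, other filters, the replicate number as a block, and each library left out in turn.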

Additional observations from a re-analysis of the deposited data

How the results depend on the processing

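When single libraries were left out, the counts of called members changed. At p under 0.01, members higher after FGF19 numbered from 1 to 5 and members lower from 3 to 6. At an adjusted p under 0.05 they numbered from 0 to 5 and from 1 to 6. The lowest counts of higher members, 1 and 0, came without Vehicle replicate 3, when 7.12% of all genes passed p under 0.01, and the highest without FGF19 replicate 3, when 17.0% did. The median log2 difference of the members lay between -0.105 and -0.0378. The sign of some genes that did not pass turned in these fits: the log2 difference ranged from -0.157 to 0.0189 for Slc25a39, from -0.240 to 0.109 for Slc25a24, from -0.0237 to 0.301 for Slc25a29, from -0.176 to 0.174 for Slc25a32, from -0.0723 to 0.0936 for Slc25a38, from -0.103 to 0.00249 for Slc25a44, from -0.0755 to 0.0199 for Tomm70a, from -0.0426 to 0.211 for Pck1 and from -0.107 to 0.0977 for Slc25a15. With the replicate block, 3 members were lower at p under 0.01 and 1 was higher at an adjusted p under 0.05, and Slc25a22, Slc25a23 and Slc25a42 lost their adjusted call. The labels give only shared numbers, though: deviations of same-numbered libraries correlated at -0.05, -0.23 and -0.21, and no library correlated best with its own number. The causes were not tested. DESeq2, limma-voom, the likelihood ratio test, total count scaling and both other filters kept the direction of every called member. The filter of 1 CPM in every library tested 34 of the 36 members. Over all genes, 579 were lower at an adjusted p under 0.05 with the likelihood ratio test and 164 with the block, against 357. A count of 0 in a library allowed a level of up to about 0.158 CPM, by counting error only.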

Other observations

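Genes of cofactor, iron and heme metabolism and of mitochondrial biogenesis were read from the same edgeR quasi-likelihood fit. Of 12 tested enzymes of mitochondrial folate and S-adenosylmethionine metabolism, 8 had a log2 difference below 0, with a median of -0.27, against 50.1% below 0 and a median of -0.00076 over all genes tested. At an adjusted p under 0.05, 1 rose and 2 fell (4.56% and 2.84% of all genes). Mthfd2, which oxidises methylene-tetrahydrofolate in mitochondria, rose from 0.531 ± 0.135 CPM in Vehicle to 2.05 ± 0.215 CPM in FGF19 livers (SD, n = 3, log2 difference 1.93, adjusted p 0.00394). This low gene was called in all 6 fits that left out 1 library. Sardh, the sarcosine dehydrogenase, fell from 1044 ± 27.5 to 784 ± 76.8 CPM (-0.41, adjusted p 0.0327), and Shmt2, which makes glycine from serine, from 255 ± 7.72 to 205 ± 7.36 CPM (-0.32, adjusted p 0.0424). Without any 1 library other than FGF19 replicate 3, Sardh and Shmt2 lost their calls (highest adjusted p 0.155 and 0.187). Mat1a, which makes S-adenosylmethionine in liver, was the highest of the list (-0.20, adjusted p 0.358).

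Of 14 genes of mitochondrial iron, heme and iron-sulfur clusters, 11 had a difference below 0 (median -0.17) and 2 fell in the edgeR fit, against 50.1% and 2.84% of all genes. Tmem14c, needed for porphyrin transport, was at 92.1 ± 5.52 CPM in Vehicle and 65.2 ± 10.1 CPM in FGF19 livers (SD, n = 3, -0.50, adjusted p 0.0327), and the porphyrin transporter Abcb6 at 83.9 ± 5.81 and 64.5 ± 3.27 CPM (-0.38, adjusted p 0.0329). The call of Tmem14c held only without FGF19 replicate 3 (highest adjusted p 0.141), and that of Abcb6 without Vehicle replicate 2 or FGF19 replicate 3 (highest 0.141). Alas1, the rate-limiting enzyme of heme synthesis in liver, ranged from 189 to 550 CPM in Vehicle and from 204 to 252 CPM in FGF19 livers (-0.68, adjusted p 0.214).

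Of 14 genes of coenzyme A, NAD and thiamine cofactors, 11 had a difference below 0 (median -0.13) and 1 fell, against 50.1% and 2.84% of all genes. Nampt, the rate-limiting enzyme of NAD salvage, fell from 84.3 ± 8.30 to 59.4 ± 5.53 CPM (SD, n = 3, -0.50, adjusted p 0.0206, edgeR's quasi-likelihood test), a call lost without Vehicle replicate 1 or 3 or FGF19 replicate 1 (highest adjusted p 0.0797). Pank1, which starts coenzyme A synthesis, had a difference of -0.12 (adjusted p 0.523). Of 12 regulators of mitochondrial biogenesis, 6 had a difference above 0 and 6 below, with a median of 0.04, and none passed the adjusted threshold, while 2 were higher and 1 lower at p under 0.01 (6.20% and 4.98% of all genes).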
